A study of Sus scrofa with 15 samples.

Results

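RNA sequencing data of implanted pig penile tissue from the groups labelled ECs+ implantation and implantation A were compared. These groups make up 6 of the 15 libraries of the series, 3 per group, picked by their titles and column names. The tissue in every label is the penile corpus cavernosum of the pig (Sus scrofa), and the other groups are normal, defect and implantation B, also with 3 libraries each. ECs+ implantation and implantation A are not a pair of the stated design, in which implantation A is compared with defect and normal, and implantation B with ECs+ implantation. The labels give no strain, age, treatment time, implant material or batch, and spell out neither ECs nor what separates implantation A from B. Nothing in them says whether replicates are different animals. The p-values therefore reflect library-to-library spread alone, possibly only technical spread. A further description line of the 3 ECs+ libraries names the third normal sample, and their identity rests on the titles and columns. Any batch that separated the sets cannot be told apart from the group.

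The corpus cavernosum is a sponge of endothelium-lined blood spaces held in trabeculae of smooth muscle and collagen. Nitric oxide from nerves and endothelium raises cyclic GMP in the smooth muscle, which relaxes and lets the spaces fill. Fibrillar collagen and elastic fibres carry the pressure, and type IV collagen and laminins form the basement membranes around endothelium and muscle.

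Levels are CPM, counts scaled to a common library size with TMM factors, and fold changes are ECs+ implantation over implantation A on the log2 scale. Means carry the SD of 3 libraries and log2 fold changes the SE of the model. Where means are joined by against, that of implantation A comes first and that of ECs+ implantation second. Total counts ran from 18699034 to 19644793 in implantation A and from 17770452 to 18810860 in ECs+ implantation. With 3 counts over a whole group as the floor, the floor is 0.0503 CPM for implantation A and 0.0546 CPM for ECs+ implantation. Across genes, which are not independent replicates, log2 CPM correlated at 0.997 within implantation A, at 0.996 within ECs+ implantation and at 0.921 to 0.922 between them. Libraries of implantation A and B correlated at 0.975 to 0.976. The 18S ribosomal transcript RN18S took 1.38% to 1.41% of counts in ECs+ implantation and 0.144% to 0.228% in implantation A. All 4 defining markers, PECAM1 for endothelium, ACTA2 for smooth muscle, COL1A1 for fibroblasts and KRT5 for stratified epithelium, were read in implantation A. PECAM1, ACTA2 and COL1A1 were also read in all ECs+ libraries, while KRT5 had 4 counts there. The keratinocyte and urothelial list, described after the matrix, summed to 4809 to 4813 CPM in implantation A and 138 to 145 CPM in ECs+ implantation. Its part in the vessel, muscle and matrix results was not tested.

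Genes are called higher or lower where edgeR's quasi-likelihood test with Benjamini-Hochberg adjustment over all 17556 tested genes gave an adjusted p under 0.05. Of these genes 12866 (73.3%) were called, 6821 (38.9%) higher and 6045 (34.4%) lower in ECs+ implantation. With a change of at least 2-fold as well, 3951 (22.5%) were called, 1626 (9.26%) higher and 2325 (13.2%) lower. Libraries of the groups did not overlap for 74.9% of genes. For implantation B over implantation A, which shares the implantation A libraries, 60.3% were called (32.4% higher, 27.9% lower), and for ECs+ implantation over implantation B, which shares the ECs+ libraries, 76.2% (39.7% higher, 36.5% lower). The median log2 fold change of all tested genes was 0.05. On the deposited TPM values (transcript counts scaled for length and depth) the same comparison gave 2635 higher and 9638 lower of 15431 genes tested. The median of all genes was -0.38, so TPM changes are read against that shift. TPM folds are on the log2(TPM + 1) scale, tested with limma after a filter on low values, and a list's TPM median covers the members that passed it. A share of members called near these percentages is not particular to a list. On TPM the same holds for a split near that of the 15431 genes.

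Fold changes also moved with gene length, read as counts per TPM in implantation A over 12422 genes. In 10 classes of equal size the median log2 fold change ran from 0.46 in the shortest class to -0.30 in the longest. For implantation B over implantation A these classes stood at 0.039 and 0.084. The part of length and of the RN18S share in the gene results below was not tested beyond a length offset. The offset sets the median of each class to that of the 12422 genes and leaves genes without a length value unadjusted. Its values are given where they change a direction or a call of a gene described.

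**Figure D1:**
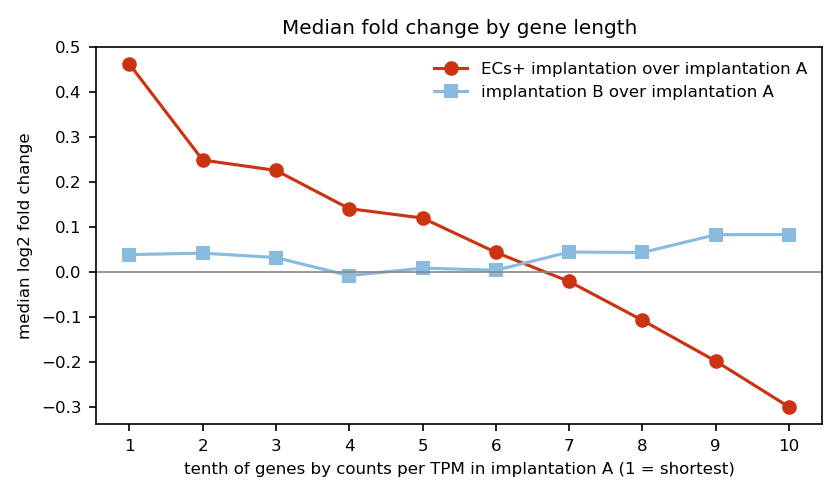
Median log2 fold change (vertical axis) over 10 classes of genes ordered by length, read as counts per TPM in implantation A (horizontal axis, 1 is shortest). The line for ECs+ implantation over implantation A falls from 0.46 to -0.30, and that for implantation B over implantation A stays between -0.0074 and 0.084.

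Endothelial transcripts were mostly more abundant in ECs+ implantation than in implantation A. Of 27 markers, all tested, 24 were higher and 3 lower, 13 of the higher ones by at least 2-fold, and the median log2 fold change was 0.92 against 0.05 for all genes. On TPM 16 were higher and 10 lower, with a median of 0.37, and with the length offset 23 were higher and 3 lower, with a median of 0.95. Summed over the list, the level was 4144 to 4197 CPM in implantation A, 7395 to 7495 CPM in ECs+ implantation, 3363 to 3403 CPM in implantation B and 7016 to 7381 CPM in normal tissue. In bulk tissue, fewer cells of a type and less RNA per cell cannot be told apart.

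PECAM1, the CD31 adhesion molecule of endothelial junctions (chromosome 12, 14667643 to 14723296 on Sscrofa11.1), was read at 439, 452 and 448 CPM in implantation A and 1193, 1167 and 1199.6 CPM in ECs+ implantation. The ECs+ libraries all lay above those of implantation A, by 2.66-fold (log2 1.41 ± 0.022, SE, adjusted p = 1.06e-42, edgeR). Its level was 438 ± 2.64 CPM in implantation B and 678 ± 12.3 CPM in normal tissue (SD, n = 3), both below ECs+ implantation. CLDN5, the claudin of endothelial tight junctions (chromosome 14, 51161490 to 51162382), stood at 91.8, 89.5 and 91 CPM in implantation A and 361, 346 and 363 CPM in ECs+ implantation. This was 3.93-fold higher (log2 1.98 ± 0.03, SE, adjusted p = 1.9e-43, edgeR), the largest log2 change of the 27 markers. The CLDN5 level in normal tissue was 373 ± 12.7 CPM. ADGRF5, an adhesion receptor of endothelium, was 1.82 ± 0.028 higher on the log2 scale, at 109 ± 2.17 against 384 ± 0.955 CPM. CLEC14A, an endothelial lectin, was 1.73 ± 0.026 higher, at 143 ± 0.719 against 474 ± 6.36 CPM. For both genes the groups did not overlap.

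Receptors, enzymes and junction proteins of endothelium followed. KDR, the main VEGF receptor (chromosome 8, 41809116 to 41856379), was read at 88.2, 84.3 and 81.1 CPM in implantation A and 154, 161 and 155 CPM in ECs+ implantation, without overlap (log2 0.89 ± 0.036). NOS3, which makes nitric oxide in endothelium (chromosome 18, 6209218 to 6228912), was read at 124, 124 and 126 CPM in implantation A and 246, 235 and 227 CPM in ECs+ implantation, again without overlap (log2 0.92 ± 0.031). Its level in ECs+ implantation lay between those of implantation B, at 87.3 ± 3.47 CPM, and normal tissue, at 308 ± 12.7 CPM. TIE1, an orphan receptor partner of TEK, stood at 169 ± 3.12 against 463 ± 7.03 CPM, and EMCN, a sialomucin of capillaries and veins, at 100.4 ± 0.338 against 312 ± 7.34 CPM. CDH5, the VE-cadherin of adherens junctions, was read at 235, 233 and 246 CPM in implantation A and 293, 279 and 295 CPM in ECs+ implantation. Its log2 fold change of 0.28 ± 0.028 was called higher on counts. On TPM it was -0.23 and called lower, but lay above the -0.38 median of all genes.

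The 3 markers called lower were VWF, ENG and PLVAP. VWF, the clotting glycoprotein stored in endothelial granules (chromosome 5, 64516627 to 64655938), was read at 594, 593 and 607 CPM in ECs+ implantation and 810.1, 781 and 799.8 CPM in implantation A, a log2 change of -0.41 ± 0.022 without overlap. ENG, a co-receptor for TGF-beta family ligands, stood at 189 ± 1.95 against 158 ± 0.744 CPM. PLVAP, the diaphragm protein of fenestrated endothelium, stood at 189 ± 4.43 against 83.4 ± 4.2 CPM, 2.26-fold lower in ECs+ implantation. In normal tissue VWF, ENG and PLVAP stood at 1093 ± 52.8, 206 ± 4.99 and 236 ± 10.2 CPM, above both groups compared. For these markers ECs+ implantation thus lay further from normal tissue than implantation A did. Within each library the ratio of PECAM1 to VWF counts was 0.542, 0.579 and 0.56 in implantation A and 2.01, 1.97 and 1.98 in ECs+ implantation, with 0.586 ± 0.00687 in implantation B and 0.622 ± 0.0358 in normal tissue (SD, n = 3). Endothelial markers thus did not move by one common factor. For this ratio and the 5 others computed the exact two-sided permutation test gave p = 0.1, the smallest that 3 against 3 libraries allow and 0.1 after adjustment over the 6.

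**Figure D2:**
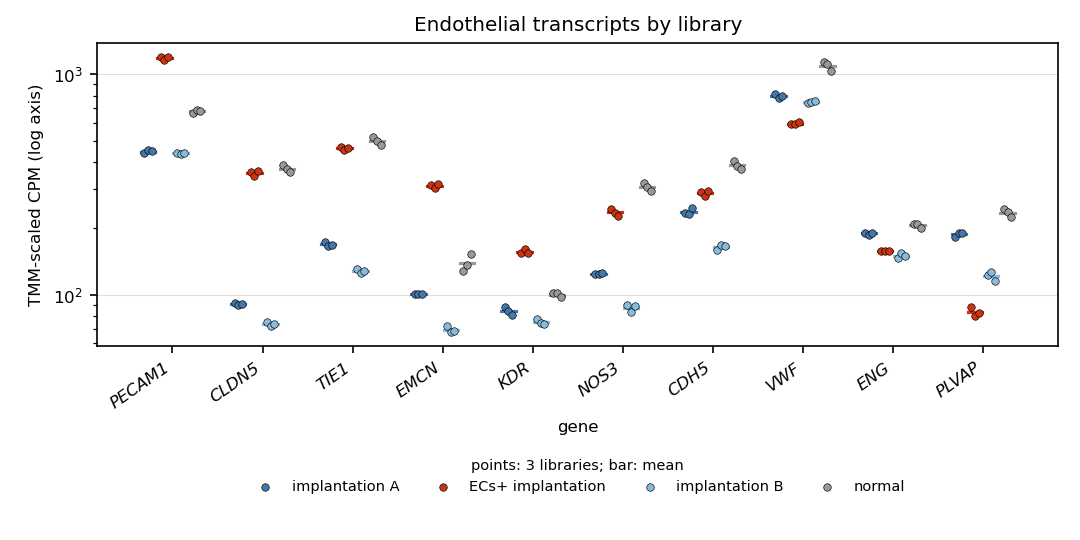
TMM-scaled CPM on a log axis for 10 endothelial genes (horizontal axis) in the 3 libraries of each of 4 groups; points are libraries and bars are means. CLDN5, TIE1 and EMCN stand higher in ECs+ implantation than in implantation A in all 3 libraries, and VWF, ENG and PLVAP stand lower.

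Of 19 genes of arterial and venous identity, 11 were higher and 7 lower, with 1 not passing, and the median was 0.58. On TPM 8 were higher and 9 lower, with a median of 0.11. With the length offset 11 were higher and 5 lower, with a median of 0.17. The higher ones held the venous regulator NR2F2 (1.12) and the leukocyte adhesion molecule VCAM1 (1.40), with arterial genes such as GJA5 (0.97), DLL4 (0.97) and HEY1 (0.97). ACVRL1, a BMP9 receptor of endothelium, was 0.77 ± 0.034 higher. The lower ones held APLNR (-2.01), the apelin receptor, EFNB2 (-0.93), the arterial ephrin, and NOTCH1 (-0.51). HEY2 was at 33.7, 35.3 and 36.7 CPM in implantation A and 33.3, 35.8 and 40 CPM in ECs+ implantation, where the libraries overlapped (adjusted p = 0.524, edgeR). It was called lower on TPM (-0.96, adjusted p = 4.1e-06, limma) and with the length offset (-0.15, adjusted p = 0.0348, edgeR).

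Members of the list of angiogenic ligands and receptors, which also holds the inhibitors THBS1 and THBS2, were lower more often than higher. Of 27 tested of 28 listed, 8 were higher and 13 lower, 6 did not pass, and the median was -0.21. On TPM 4 were higher and 20 lower, with a median of -0.56 against -0.38 for all genes. VEGFA, the main endothelial growth factor, was read at 89.4, 89.5 and 86.3 CPM in ECs+ implantation and 113, 111 and 111 CPM in implantation A, a log2 change of -0.34 ± 0.037. APLN, the apelin ligand made by sprouting endothelium (chromosome X, 106236746 to 106246563), stood at 1.11, 0.5 and 0.899 CPM in ECs+ implantation and 17.6, 19.7 and 22.3 CPM in implantation A, with all ECs+ libraries far below. The angiogenesis inhibitor THBS1 (chromosome 1, 131728781 to 131746098) stood at 19.9, 20.5 and 21.4 CPM in ECs+ implantation and 258, 249 and 252 CPM in implantation A, 12.3-fold lower. Its relative THBS2 was 6.14-fold lower, at 279.5 ± 2.24 against 45.5 ± 1.63 CPM. THBS1 and THBS2 were at 16.7 ± 1.33 and 39 ± 2.98 CPM in normal tissue and at 288 ± 1.11 and 564 ± 8.69 CPM in implantation B. NRP1, a VEGF co-receptor, and PDGFRA, a receptor of fibroblasts, were lower by 0.91 ± 0.028 and 1.17 ± 0.029 on the log2 scale. VEGFA and NRP1 were at 208 ± 10.8 and 436 ± 1.72 CPM in normal tissue, above both groups compared. PDGFRA was at 159 ± 8.36 CPM there, between ECs+ implantation and implantation A. Among the higher ligands were PGF (1.65), ANGPT2 (0.98) and VEGFC (0.91).

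Lymphatic endothelial markers were lower in 7 of 9 and higher in 1, LYVE1, with a median of -1.10. CCL21, a chemokine of lymphatic vessels, was read at 8.36, 8.28 and 6.77 CPM in ECs+ implantation and 46.6, 47.7 and 44.9 CPM in implantation A. RELN, MMRN1 and PDPN were lower by 1.56 ± 0.091, 1.10 ± 0.1 and 0.42 ± 0.07 on the log2 scale. LYVE1, a hyaluronan receptor also found on macrophages, stood at 0.874 ± 0.0986 against 2.41 ± 0.581 CPM, and its mean TPM was 0.748 in implantation A and 1.38 in ECs+ implantation. Epithelial markers, described below, were also lower in these libraries, and PDPN is expressed by epithelium as well. Their part in the lymphatic values was not tested.

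Contractile smooth muscle genes were mostly less abundant in ECs+ implantation. Of 28, all tested, 21 were lower and 7 higher, 5 of the lower ones by at least 2-fold, with a median of -0.52. On TPM 27 were lower and 1 higher, with a median of -0.98 against -0.38 for all genes. The summed level was 13868 to 14083 CPM in implantation A and 9611 to 9856 CPM in ECs+ implantation, beside 8565 to 8638 CPM in implantation B and 8881 to 9486 CPM in normal tissue. Implantation A was thus the highest of these groups. In the comparison of implantation B with implantation A, which shares the implantation A libraries, 25 of the 28 were lower.

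ACTA2, smooth muscle actin (chromosome 14, 100868145 to 100886732), was read at 1601, 1596 and 1577 CPM in implantation A and 944, 927 and 1007 CPM in ECs+ implantation, 1.66-fold lower (log2 -0.73 ± 0.023, adjusted p = 3.77e-28, edgeR). The groups did not overlap, and ECs+ implantation lay above 749.8 ± 16.4 CPM in implantation B and 729 ± 19.1 CPM in normal tissue. MYH11, the smooth muscle myosin heavy chain (chromosome 3, 7002667 to 7143093), stood at 1891, 1911 and 1937 CPM in implantation A and 1095, 1086 and 1122 CPM in ECs+ implantation (log2 -0.80 ± 0.02), with 1111 ± 4.6 CPM in implantation B and 1205 ± 23.1 CPM in normal tissue. FLNA, an actin crosslinker, was -0.98 ± 0.019 on the log2 scale, at 2946 ± 39 against 1493 ± 32.5 CPM. CNN1, calponin, was read at 358, 358 and 367 CPM in implantation A and 250.3, 247 and 245 CPM in ECs+ implantation, without overlap.

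TAGLN, an actin-binding protein of smooth muscle, was at 917, 909 and 924 CPM in implantation A and 887, 856 and 910.0 CPM in ECs+ implantation. The libraries overlapped, and its log2 change of -0.05 ± 0.022 had an adjusted p of 0.035 (edgeR) and lost the call without ECs+ implantation 2, implantation A 1 or implantation A 3, with adjusted p-values of 0.252, 0.0824 and 0.117 (edgeR). TPM1, a tropomyosin gene, was lower, at -0.20 ± 0.02. MYL9, ACTG2 and the other tropomyosin gene, TPM2, were called higher on counts by 0.06, 0.14 and 0.19 on the log2 scale and had the opposite sign on TPM (-0.42, -0.35 and -0.27) and with the length offset (-0.14, -0.060 and -0.22). The TPM median of all genes was -0.38, and ACTG2 and TPM2 lay above it. MYL9 also lost its call without ECs+ implantation 3, implantation A 1 or implantation A 2, with adjusted p-values of 0.0597, 0.0684 and 0.148 (edgeR). DES, the intermediate filament of muscle (chromosome 15, 121428539 to 121435426), stood at 239, 246 and 240.0 CPM in implantation A and 389.8, 395 and 390.3 CPM in ECs+ implantation, 1.62-fold higher, with every ECs+ library above implantation A. It is also a skeletal muscle gene. Its level was 153 ± 3.57 CPM in implantation B and 162 ± 7.76 CPM in normal tissue.

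MYOCD, the co-activator of serum response factor (chromosome 12, 56931628 to 57029258), was read at 1.22, 1.39 and 1.37 CPM in ECs+ implantation and 12.4, 14.2 and 12.7 CPM in implantation A, with a log2 change of -3.30 ± 0.19. SRF, its DNA-binding partner, stood at 105 ± 0.9 against 54.1 ± 1.97 CPM. HSPB6, a small heat shock protein of relaxing muscle, stood at 307 ± 17.6 against 84.4 ± 1.03 CPM, and ITGA8, an integrin chain of smooth muscle, at 62.3 ± 1.7 against 15.6 ± 1.61 CPM. The ECs+ libraries lay below all implantation A libraries for each of these 4 genes.

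Pericyte markers were lower in 7 and higher in 3 of 11 tested (12 listed), with a median of -0.57. On TPM 1 were higher and 8 lower, with a median of -0.99. NOTCH3, the mural cell Notch receptor, stood at 806 ± 12.7 against 286 ± 9.57 CPM, and RGS5, a regulator of G protein signalling, was read at 190.0, 190.3 and 174 CPM in implantation A and 124, 121 and 116 CPM in ECs+ implantation. PDGFRB, the receptor that recruits mural cells, was -0.57 ± 0.023 on the log2 scale, and MCAM was -0.73 ± 0.03. NOTCH3 and PDGFRB were at 977 ± 66.5 and 1000 ± 60.3 CPM in normal tissue, above both groups compared. RGS5 and MCAM were at 74.8 ± 8.87 and 124 ± 3.53 CPM there, below both. The 3 higher genes were NDUFA4L2, KCNJ8 (0.47) and HIGD1B (0.35). NDUFA4L2, a mitochondrial protein, stood at 95.8 ± 3.48 against 194 ± 6.87 CPM, the latter like normal tissue at 194 ± 15.8 CPM.

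**Figure D3:**
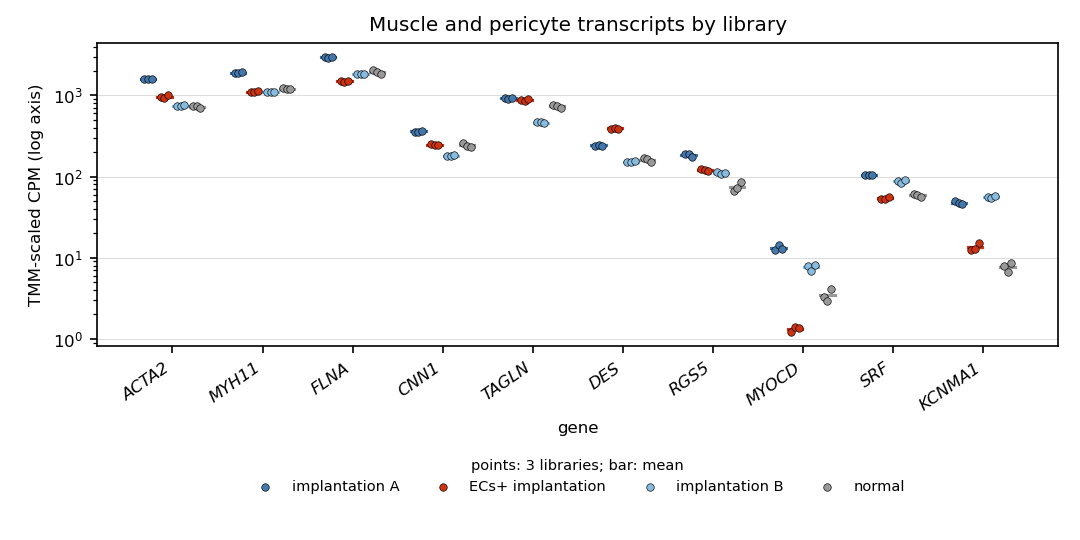
TMM-scaled CPM on a log axis for 10 smooth muscle, pericyte and channel genes (horizontal axis) in the 3 libraries of each of 4 groups; points are libraries and bars are means. MYOCD and KCNMA1 are the widest apart between implantation A and ECs+ implantation, DES is higher in ECs+ implantation, and TAGLN nearly coincides between implantation A and ECs+ implantation.

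The list for nitric oxide and cyclic nucleotides had 27 of 28 genes tested, and the split between higher and lower depended on the scale. On counts 12 were higher and 10 lower, with a median of -0.09. On TPM 6 were higher and 15 lower, with a median of -0.42. Less the -0.38 of all genes that median was -0.043, so the TPM split follows the shift of all genes. With the length offset 15 were higher and 7 lower, with a median of 0.23. On the synthesis side, NOS3 was higher, as given above, and NOS2, the inducible synthase, stood at 7.26 ± 0.288 against 15.9 ± 1.78 CPM. Soluble guanylate cyclase, the receptor for nitric oxide, had its alpha chain GUCY1A3 at 55.7, 56.6 and 53.7 CPM in implantation A and 40.9, 51.8 and 46 CPM in ECs+ implantation, lower by 0.26 ± 0.059 on the log2 scale. Its mean TPM was 30.2 in implantation A and 10.8 in ECs+ implantation, a wider gap than on counts. Its beta chain GUCY1B3 was higher on counts, at 35.1 ± 1.59 against 54.8 ± 2.66 CPM, and did not pass on TPM (0.061, adjusted p = 0.31, limma). That TPM value lay above the -0.38 median of all genes. PRKG1, the cyclic GMP-dependent kinase, was -0.31 ± 0.066, and did not pass with the length offset (-0.063, adjusted p = 0.395, edgeR).

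PDE5A, the cyclic GMP phosphodiesterase that sildenafil blocks (chromosome 8, 104270858 to 104420955), was read at 73, 70.7 and 68.1 CPM in implantation A and 63.1, 69.4 and 62.5 CPM in ECs+ implantation. The libraries of the groups overlapped, and the log2 change of -0.12 ± 0.046 lost its call without ECs+ implantation 1 or 3 or implantation A 1 or 2, with adjusted p-values of 0.069, 0.102, 0.115 and 0.0504 (edgeR). It turned to 0.23 with the length offset. PDE3A, which cuts cyclic AMP, was far lower, at 1.94, 2.11 and 2.22 CPM in ECs+ implantation and 20.6, 19.5 and 19.9 CPM in implantation A. PTGIS, prostacyclin synthase, was higher at 326 ± 2.74 against 736 ± 9.46 CPM, and so was CAV1, the caveolin of endothelium and muscle, at 738 ± 2.12 against 1369.9 ± 16.4 CPM. PTGER2, a prostaglandin E receptor, was 1.66 ± 0.067 on the log2 scale.

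Smooth muscle ion channel genes were lower in 11 and higher in 2 of 17, with a median of -0.44. On TPM 0 were higher and 15 lower, with a median of -0.87. KCNMA1, the large-conductance calcium-activated potassium channel, stood at 47.5 ± 2.44 against 13.5 ± 1.5 CPM. CACNA1C, the L-type calcium channel, stood at 36.9 ± 2.45 against 9.75 ± 0.341 CPM, and GJA1, the connexin of muscle and fibroblast gap junctions, at 193 ± 4.83 against 51.9 ± 1.54 CPM. KCNMA1 and GJA1 were at 7.71 ± 0.948 and 27.8 ± 1.6 CPM in normal tissue, below ECs+ implantation. CACNA1C was at 28.8 ± 0.555 CPM there, between ECs+ implantation and implantation A. ATP2A2, the calcium pump of the reticulum, was -0.65 ± 0.035. PLN, its inhibitor, was called higher on counts, at 0.51 ± 0.086, and did not pass on TPM (0.087, adjusted p = 0.162, limma) or with the length offset (0.10, adjusted p = 0.297, edgeR). The TPM value of PLN lay above the -0.38 median of all genes. Of skeletal muscle genes 7 of 19 were tested, with 3 higher and 3 lower and a median of -0.52 that was 0.28 on TPM. Apart from DES, given above, they were at low levels: CASQ1 stood at 5.22 ± 0.234 against 11.8 ± 0.745 CPM and TTN at 11.2 ± 0.127 against 5.92 ± 0.468 CPM, while MYH7 had 65 counts over implantation A and 5 over ECs+ implantation.

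Fibrillar collagen transcripts were far less abundant in ECs+ implantation. Of 11 genes, 10 were lower and 1, COL27A1, higher on counts (0.28 ± 0.034). On TPM COL27A1 was called lower, at -0.31, but lay above the -0.38 median of all genes. The list median was -1.44 on counts, and all 11 were lower on TPM, with a median of -1.30. They took 7.29 ± 0.00819% of counts in implantation A, 1.64 ± 0.00218% in ECs+ implantation, 12.4 ± 0.099% in implantation B and 1.75 ± 0.0111% in normal tissue (SD, n = 3).

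COL1A1, the alpha-1 chain of type I collagen (chromosome 12, 26379087 to 26397180), was read at 4038, 4023 and 4085 CPM in ECs+ implantation and 42294, 42164 and 42594 CPM in implantation A. That is 10.5-fold lower (log2 -3.39 ± 0.013, adjusted p = 9.52e-66, edgeR), with no overlap. COL1A1 stood at 83186 ± 1235 CPM in implantation B and 8198 ± 343 CPM in normal tissue. COL1A2, the other chain of the same trimer (chromosome 9, 74174484 to 74210407), was 2.89-fold lower, at 4971, 4959 and 4998 CPM in ECs+ implantation and 14411, 14436 and 14267 CPM in implantation A. COL3A1, type III collagen (chromosome 15, 93556914 to 93595678), was 1.67-fold lower, at 5995, 5939 and 6006 CPM in ECs+ implantation and 10004, 10008 and 10006 CPM in implantation A. The 3 genes were thus lower by different factors.

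The ratio of COL1A1 to COL1A2 counts was 2.93, 2.92 and 2.99 in implantation A and 0.812, 0.811 and 0.817 in ECs+ implantation. In implantation B it was 2.39 ± 0.0199 and in normal tissue 2.5 ± 0.136. All ECs+ libraries lay below every library of implantation A, implantation B and normal tissue in this ratio (exact permutation p = 0.1 against implantation A, the smallest possible). The ratio of COL1A1 to COL3A1 was 4.23 ± 0.0223 in implantation A and 0.677 ± 0.00328 in ECs+ implantation. COL5A1, which starts fibrils with type I collagen, stood at 1598 ± 37.8 against 316 ± 8.8 CPM, and COL2A1, the cartilage collagen, at 303 ± 3.7 against 29.6 ± 1.91 CPM.

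Of the other fibril-associated and collagen VI genes, 7 of 9 tested (11 listed) were lower and COL6A6 higher, with a median of -0.60. On TPM 1 were higher and 7 lower, with a median of -1.24. COL6A3, a chain of the beaded-filament collagen VI, was read at 1054, 1051 and 1052 CPM in ECs+ implantation and 4745, 4668 and 4790.3 CPM in implantation A. COL12A1, a fibril-surface collagen, stood at 423 ± 1.93 against 64.5 ± 3.03 CPM, COL6A2 at 4277 ± 78.7 against 1486 ± 26.7 CPM and COL14A1 at 593 ± 12.4 against 312 ± 0.886 CPM. COL6A6 was higher but low, at 2.12 ± 0.384 against 15.1 ± 0.304 CPM.

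Enzymes that process and crosslink collagen were lower in 14 and higher in 4 of 20, with a median of -0.64. On TPM 4 were higher and 16 lower, with a median of -1.13. LOX, lysyl oxidase (chromosome 2, 125595115 to 125607026), which starts covalent crosslinks, was read at 17.6, 16.3 and 19.2 CPM in ECs+ implantation and 101, 104 and 104 CPM in implantation A. It stood at 272 ± 3.6 CPM in implantation B and 34.2 ± 1.39 CPM in normal tissue, so the ECs+ libraries lay below normal tissue too. LOXL1, LOXL2 and P4HA3, a prolyl hydroxylase chain, were lower by 2.60 ± 0.047, 2.03 ± 0.046 and 1.88 ± 0.041 on the log2 scale. The 4 higher genes were LOXL4 (1.64), PCOLCE2 (1.29), ADAMTS14 (0.94) and P4HA1 (0.67).

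Basement membrane genes were lower in 18 of 20, with a median of -0.92. The genes that did not pass on counts were LAMA4, a laminin chain of endothelium, at 404 ± 0.185 against 405 ± 2.55 CPM, and LAMB2, another laminin chain, at 924 ± 9.64 against 900.3 ± 18.4 CPM. On TPM both were called lower (LAMA4 -0.51, adjusted p = 5.63e-07, and LAMB2 -0.55, adjusted p = 1.45e-07, limma), and 19 members were lower and none higher. The TPM median of all genes was -0.38. LAMB2 was called lower without ECs+ implantation 1 (adjusted p = 0.0377, edgeR). COL4A1, the main type IV collagen chain (chromosome 11, 76858332 to 76997409), was read at 468, 476 and 451 CPM in ECs+ implantation and 1349, 1357 and 1404 CPM in implantation A, and its partner COL4A2 stood at 1343 ± 28.4 against 467 ± 16.6 CPM. COL4A1 was 696 ± 26.3 CPM in normal tissue. HSPG2, perlecan, was -1.27 ± 0.02 on the log2 scale, and COL15A1 was -0.98 ± 0.021. HSPG2 stood at 2085 ± 22.5 against 864 ± 7.99 CPM, and at 2182 ± 139 CPM in normal tissue. COL15A1 stood at 1442 ± 12.4 against 731 ± 20.1 CPM, and at 876 ± 4.71 CPM in normal tissue. LAMA3 (-1.79), which epithelium also makes, was among the lower ones. The listed genes are long, with a median length class of 9 of 10, and with the length offset 18 were lower and 2 higher, LAMA4 (0.25) and LAMB2 (0.21).

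Elastic fibre genes were lower in 14 and higher in 2 of 16, with a median of -0.92. ELN, elastin, was read at 1694, 1644 and 1645 CPM in ECs+ implantation and 2163, 2159 and 2182 CPM in implantation A, a log2 change of -0.38 ± 0.019. The microfibril genes differed more, with MFAP2 at 163 ± 1.83 against 16.7 ± 0.524 CPM, MFAP4 at 449.6 ± 7.88 against 98.6 ± 2.14 CPM and FBN1, fibrillin, at 488 ± 8.79 against 158 ± 5.48 CPM. LTBP4, which holds latent TGF-beta in the matrix, was -1.25 ± 0.021, at 2238 ± 30.9 against 943 ± 26.9 CPM. In normal tissue ELN, MFAP4 and LTBP4 stood at 2169 ± 127, 436 ± 20.4 and 2375 ± 130 CPM. MFAP2 and FBN1 stood at 62.3 ± 5.38 and 227 ± 4.21 CPM there. ECs+ implantation lay below normal tissue for each of these genes, and implantation A lay above it for MFAP2 and FBN1. EFEMP1, a fibulin, was higher, at 51.6 ± 2.69 against 129 ± 7.19 CPM, and LTBP1 (0.09) was the other.

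Proteoglycans and glycoproteins were lower in 16 and higher in 8 of 25 tested (26 listed), with a median of -0.61. On TPM 4 were higher and 21 lower, with a median of -1.13. POSTN, the periostin of remodelling matrix (chromosome 11, 13225183 to 13258973), was read at 172, 171 and 178 CPM in ECs+ implantation and 2305, 2339 and 2251 CPM in implantation A, 13.2-fold lower. It was at 4613 ± 10.6 CPM in implantation B and 445 ± 45.9 CPM in normal tissue. SPARC, a collagen-binding protein, stood at 12119 ± 88.5 against 4915 ± 40 CPM, VCAN, versican, at 430.2 ± 4.55 against 124 ± 1.14 CPM, and FMOD, fibromodulin, at 1496 ± 11.9 against 709.5 ± 12.5 CPM. FN1, fibronectin, was at 1633, 1624 and 1629.5 CPM in ECs+ implantation and 2009.7, 2038 and 2015 CPM in implantation A, lower by 0.31 ± 0.019 on the log2 scale but at 0.041 with the length offset. DCN, decorin, which caps fibril growth (chromosome 5, 91678601 to 91713925), was higher at 1549.9, 1578 and 1555 CPM in ECs+ implantation and 843, 862 and 842 CPM in implantation A. Its level was 3453 ± 43.7 CPM in implantation B and 306 ± 12.4 CPM in normal tissue.

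Matrix proteases and inhibitors were lower in 13 and higher in 6 of 21 tested (23 listed), with a median of -0.58. On TPM 3 were higher and 17 lower, with a median of -0.97. MMP2, gelatinase A, was read at 651, 620.0 and 624 CPM in ECs+ implantation and 2136, 2124 and 2150.4 CPM in implantation A. MMP9, gelatinase B, had 0 counts over ECs+ implantation and 786 over implantation A, which with the group floor makes it at least 242-fold lower. MMP1, the interstitial collagenase, stood at 32.9 ± 0.729 against 0.291 ± 0.0358 CPM. MMP3, stromelysin, went the other way, at 191, 180.5 and 185 CPM in ECs+ implantation and 20.2, 22.5 and 20.5 CPM in implantation A, with 277 ± 4.1 CPM in implantation B and 5.77 ± 0.85 CPM in normal tissue. The inhibitors TIMP1 and TIMP3 were higher, at 1.18 ± 0.037 and 0.90 ± 0.019 on the log2 scale.

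Fibroblast activation and TGF-beta target genes divided into 13 lower and 10 higher of 23, with a median of -0.52. On TPM 3 were higher and 15 lower, with a median of -0.84. Beside POSTN and ACTA2, the lower ones held TGFBI at 149 ± 2.66 against 63.5 ± 2.43 CPM and CTHRC1 (-2.85). CYR61 and CTGF, immediate targets of the Hippo and TGF-beta pathways, were higher, CYR61 at 65.7 ± 0.54 against 187 ± 1.14 CPM and CTGF at 316 ± 5.58 against 517 ± 48 CPM. TGFBR2, the type II TGF-beta receptor, was 1.16 ± 0.022 and VIM, vimentin, 0.47 ± 0.015 (-0.031 on TPM). TGFB1 was called higher, at 0.21 ± 0.038 on the log2 scale, and lower on TPM (-0.28). The TPM values of VIM and TGFB1 lay above the -0.38 median of all genes.

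Resting fibroblast markers also divided, 9 higher and 7 lower of 17 tested (18 listed). Their median of 0.12 was -0.38 on TPM, the same as the -0.38 of all genes, and -0.057 with the length offset. The higher ones held APOD, apolipoprotein D, at 555 ± 13.1 against 2035 ± 33.8 CPM, MGP, the calcification inhibitor, at 595 ± 8.49 against 1993 ± 21.9 CPM, C3 at 283 ± 3.01 against 868 ± 7.02 CPM and GSN, gelsolin, at 16475 ± 231 against 33239 ± 463 CPM. APOD and MGP were at 976 ± 29 and 626 ± 6.04 CPM in normal tissue. The lower ones held IGF1 (-2.27), CD248 (-2.11) and CXCL14 (-1.95).

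**Figure D4:**
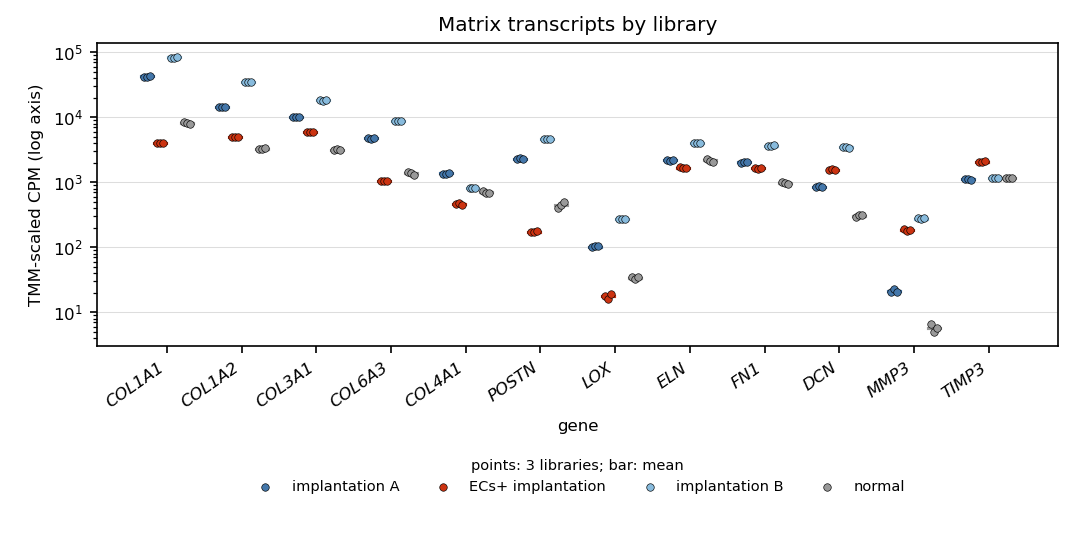
TMM-scaled CPM on a log axis for 12 matrix genes (horizontal axis) in the 3 libraries of each of 4 groups; points are libraries and bars are means. COL1A1, POSTN and LOX are lowest in ECs+ implantation, and DCN, MMP3 and TIMP3 are higher there than in implantation A.

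**Figure D5:**
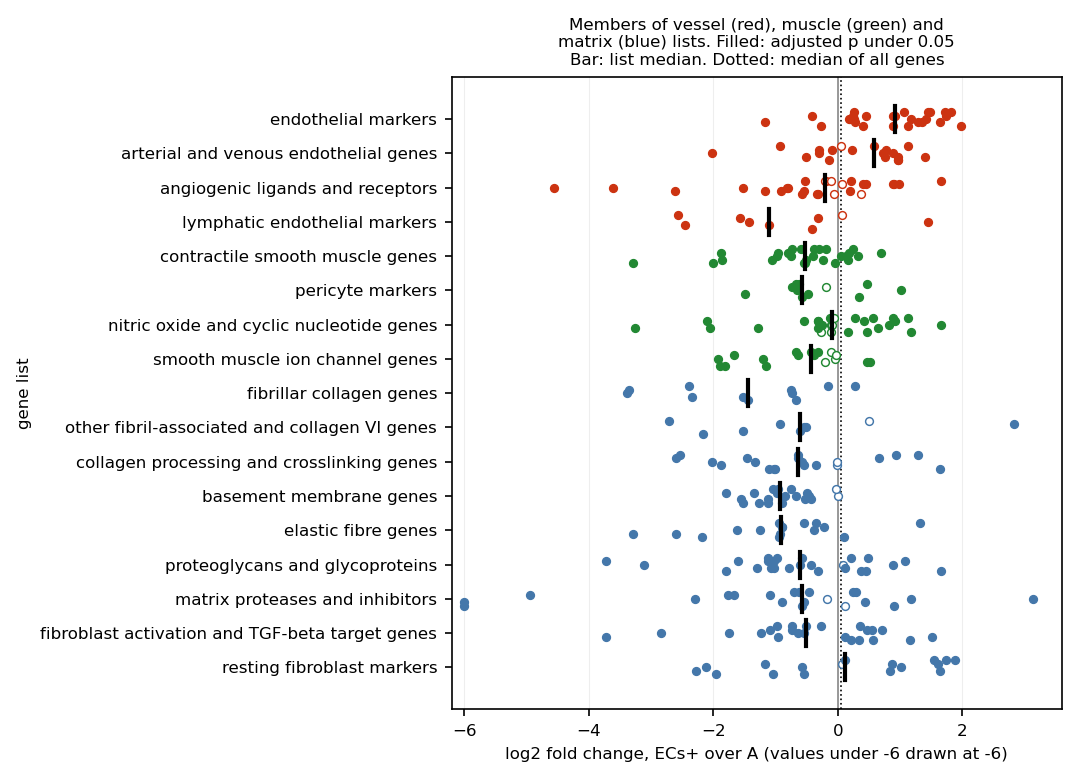
Log2 fold change of ECs+ implantation over implantation A (horizontal axis) for each tested member of 17 gene lists (vertical axis); filled points passed the test, values under -6 (MMP1 and MMP9) are drawn at -6, black bars are list medians and the dotted line is the median of all tested genes. The endothelial list has a median of 0.92 and the fibrillar collagen list one of -1.44.

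Keratinocyte and urothelial markers were lower in ECs+ implantation. Of 28 listed, 25 were in the table and 21 tested, of which 18 were lower in ECs+ implantation, all by at least 2-fold, and 3, EPCAM, KRT10 and UPK3A, did not pass. The median was -6.22 on counts, the lowest of the 33 gene lists, and -3.95 on TPM, where the neutrophil list was lower (-5.13). The summed level, given above for the compared groups, was 5616 to 5688 CPM in implantation B and 2219.7 to 2398 CPM in normal tissue. KRT5, the basal keratin (chromosome 5, 17862047 to 17868397), was read at 0, 0.222 and 0 CPM in ECs+ implantation and 1506, 1509 and 1506 CPM in implantation A, or 89879 counts in implantation A and 4 in ECs+ implantation. KRT15 had 0 counts in ECs+ implantation, at least 5069-fold lower, IVL, UPK2 and KRT1 were also at 0 there, KRT1 in implantation A too, and KRT4 stood at 1452 ± 13.5 against 0.401 ± 0.039 CPM. DSP, desmoplakin, was at 378 ± 6.34 against 0.363 ± 0.0765 CPM.

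The 8 largest falls by the naming rule were all genes of epithelia, KRT5, KRT15 and KRT4 among them. DMBT1, RIPK4 and NECTIN4 had 0 counts in ECs+ implantation and were at least 1207-fold, 665-fold and 554-fold lower. KRT6A had 2 counts there, a pooled ratio of 6470 with an exact 95% counting interval of 1791 to 53431. GJB2, connexin 26, had 1 count, a ratio of 3878 with an interval of 696 to 153228. These intervals cover counting error only.

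Among the 8 largest rises by the naming rule, PTHLH, parathyroid hormone-related protein, which relaxes smooth muscle, was read at 128, 128 and 128 CPM in ECs+ implantation and 5.28, 4.4 and 5.31 CPM in implantation A, and stood at 6.42 ± 0.24 CPM in implantation B and 6.49 ± 0.848 CPM in normal tissue. GULO, the vitamin C synthesis enzyme, stood at 0.742 ± 0.295 against 19.3 ± 1.4 CPM, and NR2E3, a nuclear receptor, at 0.994 ± 0.311 against 21.5 ± 3.63 CPM. CHI3L1, a chitinase-like glycoprotein, stood at 4.48 ± 0.697 against 108 ± 1.37 CPM, and at 202 ± 5.98 CPM in implantation B. Of the chemokines, CXCL13 and CXCL2 were higher by 4.56 ± 0.2 and 3.93 ± 0.18 on the log2 scale, and CCL4 stood at 1.56 ± 0.0993 against 25.1 ± 0.58 CPM. FOSB, an immediate early transcription factor, was read at 1066, 1091 and 1066 CPM in ECs+ implantation and 52.3, 53.9 and 51.3 CPM in implantation A, and stood at 2703 ± 28.2 CPM in implantation B and 2.25 ± 0.231 CPM in normal tissue. For 6 of the 8 (GULO, PTHLH, CXCL13, NR2E3, CCL4 and CXCL2) ECs+ implantation had the highest mean of the 4 groups shown, while CHI3L1 and FOSB were higher still in implantation B.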

How the data were processed

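Polyadenylated RNA was made into libraries by a TruSeq v2 kit, per the labels' protocols. Tools named in the submitters' processing notes, without versions, are HISAT2, HTSeq, fastp and DESeq2, with the build Sscrofa11.1. Strand use in counting was not given in the sources used here. Reads of overlapping or antisense genes may therefore be mixed. The deposited values are raw counts per gene and TPM for 26654 genes, and the making of the TPM was not given in the sources used here. Coordinates come from a RefSeq gene table of that build, which holds 99.9% of the symbols (36.7% are LOC entries).

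The counts of the 6 libraries were fitted with edgeR 4.0.16 (R 4.3.3): filterByExpr, glmQLFit (robust), glmQLFTest, two-sided, Benjamini-Hochberg, threshold 0.05. TMM factors came from 12 libraries, without the defect group, of which 2 libraries held 207769 and 250178 counts. SEs come from the model's curvature. Exact zeros are bounded by 3 counts over the group. Chi-square values between replicates, divided by their degrees of freedom, were 1.57 to 2.78, so no pair differed by as little as sampling noise and none was merged. This does not show that replicates come from different animals. On simulated counts (17323 genes) the script gave back 81.2% of 1.5-fold and 98% of 2-fold changes, with 3.61% of calls false. Few genes were changed there, equally in each direction, with 1 dispersion for all genes and no length trend. These rates are therefore not those of the compared groups.

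The 33 gene lists, 25 chosen genes and other members were chosen with earlier results of these data known. Named genes are the chosen ones (GUCY1A1 as GUCY1A3), the 8 largest changes each way (mean log2 CPM at least 3, no overlap) and up to 4 leading members per list; others named were picked after their values were seen. Alternatives were RLE, upper quartile and library-size scaling, DESeq2 1.42.0, limma 3.58.1 on counts and on log2(TPM + 1) or log2(TPM + 0.1), other filters, fits and thresholds, a replicate block and leaving out each library. TMM without keratin and collagen genes and the length offset were added after seeing the data.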

Additional observations from a re-analysis of the deposited data

How the results depend on the processing

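Of 176 named genes, 142 kept their direction and side of the threshold under every alternative in which they were tested. Counts of calls over all genes stayed within 1.5 times of those above except on TPM and with a test against 1.5-fold. On TPM with a pseudocount of 1, 2635 genes were higher (378 by 2-fold) and 9638 lower, 21.5% of calls higher against 53.0%. With 0.1 these were 2615 (515) and 9600 (3570), and without a filter 2766 (384) and 10976. Against 1.5-fold, 5359 changed, 2509 higher and 2850 lower. Leaving out 1 library gave 12221 to 12791 changed, 6517 to 6724 higher and 5704 to 6067 lower, and by 2-fold 3984 to 4101, 1646 to 1698 and 2298 to 2437. For implantation B over A it gave 9767 to 9875 and for ECs+ over B 12574 to 13046. With the replicate number as a block 12805 changed and 3961 by 2-fold, against 12866 and 3951. Deviations from the group means correlated over genes at 0.0105 to 0.0261 between same-numbered libraries. With so small a spread between replicates (coefficients of variation of 2.34% and 4.29%), this cannot decide whether the numbers pair the samples. For the lists, 2282 counts or medians over the alternatives stayed within 1.5 times or kept their sign, and 193 did not. With at least 1 CPM in 3 libraries the skeletal muscle median was 0.73, against -0.52 in the main fit. The mast cell median was -0.0089 with that filter, against 0.82 in the main fit.

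Log2 values that changed sign on TPM with a pseudocount of 1 (the same without a filter) and of 0.1 were CDH5 -0.23 and -0.23, COL27A1 -0.31 and -0.32, LAMA4 -0.51 and -0.51, VIM -0.031 and -0.031, TGFB1 -0.28 and -0.29, HEY2 -0.96 and -0.98, ACTG2 -0.35 and -0.35, TPM2 -0.27 and -0.27, and MYL9 -0.42 and -0.42. The medians of all genes were -0.38 with a pseudocount of 1, -0.20 without a filter and -0.43 with a pseudocount of 0.1. With the length offset PDE5A was 0.23, FN1 0.041, LAMB2 0.21, HEY2 -0.15, ACTG2 -0.060, TPM2 -0.22 and MYL9 -0.14. LAMA4 was -0.038 with TMM of 6 libraries, -0.049 with RLE, -0.042 with upper quartile, -0.041 with library size, -0.049 with DESeq2, -0.010 with TMM without keratin and collagen genes and -0.00068 to 0.0084 with 1 library left out. HEY2 was -0.0061 with RLE, -0.00018 with upper quartile, -0.0070 with DESeq2 and -0.028 to 0.11 with 1 library left out. The cause was not tested.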

Other observations

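Macrophage and monocyte markers were higher in 12 and lower in 3 of 19 tested (20 listed), with a median log2 fold change of 0.61 against 0.05 for all genes. On TPM 10 were higher and 6 lower, with a median of 0.17. CTSS, C1QA, C1QC and LYZ were among the higher ones, with CTSS (implantation A first) at 64.5 ± 0.763 against 145 ± 2.76 CPM and LYZ at 4.67 ± 0.396 against 14.1 ± 1.49 CPM. CSF1R and CD163 were lower, at -0.64 ± 0.041 and -0.51 ± 0.092 on the log2 scale. The list summed to 1785 to 1791 CPM in implantation B, above 1001 to 1029.6 CPM in ECs+ implantation and 816 to 826 CPM in implantation A. Neutrophil markers were lower in 4 and higher in 1, CXCL8, of 7 tested (11 listed), with a median of -0.65, or -5.13 on TPM. It was -1.06 with the length offset, which adjusts only the 4 with a length value. S100A8, S100A9 and S100A12, which epithelium also makes, stood at 172, 445 and 486 CPM in implantation A and at 0.0731, 0.81 and 0.777 CPM in ECs+ implantation. Of 9 tested T cell and NK markers 1 was called, CD4, which was lower (-0.94 ± 0.37) and lost the call without implantation A 2 or 3 (adjusted p = 0.056 and 0.0506, edgeR), and the median was -0.29. On TPM 0 were higher and 6 lower, with a median of -0.44 against -0.38 for all genes. Of 8 B and plasma cell markers MZB1 (2.49 ± 0.19) and CD79B (0.93 ± 0.43) were higher and XBP1 (-0.09 ± 0.03) lower. Their median of 0.06 was -0.42 on TPM, against -0.38 for all genes. CD79B did not pass on TPM (0.25, adjusted p = 0.422, limma) and lost its call without ECs+ implantation 2, implantation A 1 or implantation A 2 (adjusted p = 0.662, 0.0613 and 0.232, edgeR), and XBP1 without implantation A 2 (adjusted p = 0.0542, edgeR). Mast cell markers were higher in 2 and lower in 1 of 3, with a median of 0.82 that was -0.48 on TPM, against -0.38 for all genes. Erythroid markers were higher in 1 and lower in 1 of 2, with a median of -1.61.

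Schwann cell and nerve markers were lower in 11 and higher in 2 of 15 tested (18 listed), with a median of -0.86, or -1.36 on TPM. NEFL, a neurofilament, stood at 35.5 ± 0.763 against 2.04 ± 0.208 CPM, and NGFR at 119.7 ± 4.61 against 17.4 ± 2.52 CPM, while S100B was higher at 0.62 ± 0.024 on the log2 scale. Proliferation genes were lower in 19 and higher in 4 of 24, with a median of -1.19. MKI67 was read at 42.6, 43.7 and 43.8 CPM in implantation A and 5.7, 6.34 and 6.4 CPM in ECs+ implantation, and TOP2A was -2.17 ± 0.12. Cartilage and bone genes were lower in 7 and higher in 2 of 11 tested, with ACAN at 389 ± 1.31 against 179 ± 3.51 CPM, and the median was -0.78, or -1.49 on TPM. Adipocyte markers were higher in 5 and lower in 5 of 10, with a median of 0.0068 that was -0.34 on TPM and -0.035 with TMM factors of the 6 libraries alone. The TPM median of all genes was -0.38.

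Immediate early and heat shock genes were higher in 13 and lower in 8 of 25 tested, with a median of 0.46. On TPM 11 were higher and 13 lower, with a median of -0.50, against -0.38 for all genes. FOS was read at 90.4, 85.3 and 82.2 CPM in implantation A and 784, 732 and 792 CPM in ECs+ implantation, and EGR1 and DUSP1 were higher by 1.68 ± 0.028 and 1.33 ± 0.027. Implantation B stood above both, with FOS at 2448 ± 9.95 CPM. Hypoxia and glycolysis genes were higher in 10 and lower in 8 of 19, with a median of 0.26. On TPM 5 were higher and 11 lower, with a median of -0.31, against -0.38 for all genes. NDRG1 was higher at 1.43 ± 0.024, while the hypoxia factors EPAS1 and HIF1A and the glucose transporter SLC2A1 were lower at -2.10 ± 0.03, -1.46 ± 0.041 and -1.55 ± 0.044. Interferon response genes were higher in 8 and lower in 13 of 24 tested, with a median of -0.20. On TPM 5 were higher and 18 lower, with a median of -0.63. GBP1 stood at 37.4 ± 0.0503 against 106 ± 5.61 CPM, IFI44L was higher by 1.03 ± 0.034 and MX2 was lower, at -3.41 ± 0.12. Ribosomal protein genes were higher in 24 of 24, with a median of 0.92, or 0.57 with the length offset, and are short, with a median length class of 1 of 10.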
